A study of Mus musculus with 15 samples.

Results

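Of the 30959 regions where both Rad21 ChIP-seq libraries of this series held a peak, 2336 (7.55%) overlapped neither a CTCF peak nor an H3K27ac peak, and these unmarked regions are described here. They were chosen by peak overlap on mouse build mm9: overlapping Rad21 peaks of the replicates were merged on chromosomes 1 to 19 and X, regions with a peak of each replicate were kept, and those overlapping by at least 1 bp a peak of the CTCF list or of either H3K27ac list were removed. The 54415 merged Rad21 regions thus gave 30959 shared regions, of which 10559 (34.1%) lacked a CTCF peak. The other shared regions, used below for comparison, were 15658 with a CTCF peak only, 8223 with an H3K27ac peak only and 4742 with both. The absence of the marks and the presence of Rad21 are therefore the rule, not a finding.

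The series concerns loop extrusion by cohesin in primary CD69-negative CD4+CD8+ thymocytes, immature T cells that have not yet received a selection signal. It holds 15 samples, and the work below rests on the peak lists of 5 ChIP-seq libraries, namely 1 CTCF, 2 Rad21 and 2 H3K27ac libraries. All 5 libraries came from wild type thymus of strain C57BL/6, so the lists compare places in the genome and not conditions. The 8 Hi-C samples, from wild type, CTCF-/- and CTCF-/-, Rad21-/- cells, are not analysed here, nor are the 2 inputs. No label ties the replicates to separate animals, and their spread may be technical. CTCF was profiled in 1 library only, so a CTCF peak missed in it has no replicate to be found in.

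Rad21 is a subunit of cohesin, the ring complex that encircles DNA and is thought to extrude it into loops. CTCF is a zinc finger protein that binds a long DNA motif and halts extruding cohesin, which is why most strong cohesin peaks of mammalian cells lie at CTCF sites. H3K27ac is an acetylation of histone H3 at active promoters and enhancers, where cohesin loaders such as NIPBL are also found.

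The sequences of the unmarked regions that rank highest in both replicates show the main division among them, namely whether the CTCF core consensus lay at the Rad21 summit. A match had to lie on either strand no more than 50 bp from a summit, with at most 2 mismatches in 13 letters. The first 5 regions with a match are printed from 50 bases before to 50 after the replicate 1 summit, on the plus strand of NCBIM37, the assembly that mm9 displays. Capitals mark the match, and each region is named by the gene with the nearest transcription start site (TSS).
Ube2e3, chr2:78799715-78799815: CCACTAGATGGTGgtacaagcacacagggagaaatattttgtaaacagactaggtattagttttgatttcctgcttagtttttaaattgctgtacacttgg
Lpin1, chr12:16238065-16238165: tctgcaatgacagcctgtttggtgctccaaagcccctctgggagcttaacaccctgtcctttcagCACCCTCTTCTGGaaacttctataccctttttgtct
Zc3h12b, chrX:92882616-92882716: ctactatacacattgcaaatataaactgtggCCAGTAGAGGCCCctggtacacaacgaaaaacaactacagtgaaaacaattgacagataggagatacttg
Psmg1, chr16:96186141-96186241: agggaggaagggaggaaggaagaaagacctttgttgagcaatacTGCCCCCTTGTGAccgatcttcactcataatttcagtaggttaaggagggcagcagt
Dscc1, chr15:54928776-54928876: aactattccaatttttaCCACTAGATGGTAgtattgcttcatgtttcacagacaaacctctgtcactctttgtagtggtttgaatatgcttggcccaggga

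These 5 matches had 1 or 2 mismatches, lay on the plus strand at Ube2e3, Zc3h12b and Dscc1, and lay on the minus strand at Lpin1 and Psmg1. The first 3 unmarked regions without a match at either summit are printed in the same way, all in lower case, to show summits that lack the consensus.
Kctd18, chr1:58006190-58006290: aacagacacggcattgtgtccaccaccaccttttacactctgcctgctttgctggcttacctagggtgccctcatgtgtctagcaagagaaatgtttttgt
Plcxd2, chr16:45991517-45991617: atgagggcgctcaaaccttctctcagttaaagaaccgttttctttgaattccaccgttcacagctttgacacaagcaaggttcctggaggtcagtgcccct
Eri1, chr8:36525309-36525409: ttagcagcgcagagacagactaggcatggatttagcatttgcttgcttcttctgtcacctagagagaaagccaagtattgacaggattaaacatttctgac
The best alignment of the consensus at the replicate 1 summit had 3 mismatches at Kctd18 and Eri1 and 5 at Plcxd2.

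The last set shows the match word that recurred most among the unmarked regions, with 15 bases on either side and written on the strand of the match. The 4 regions are the highest ranked with this word and were chosen after the values were seen.
Pitrm1, chr13:6291539-6291581, minus strand: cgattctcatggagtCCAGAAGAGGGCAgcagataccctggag
Fos, chr12:86872763-86872805, plus strand: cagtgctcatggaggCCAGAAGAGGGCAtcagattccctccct
St8sia6, chr2:13727952-13727994, minus strand: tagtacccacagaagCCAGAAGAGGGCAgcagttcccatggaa
Phlpp1, chr1:108243507-108243549, minus strand: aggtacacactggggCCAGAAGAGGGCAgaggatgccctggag
The word is the same in all 4, and the bases beside it are alike but not identical.

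The unmarked regions were low Rad21 peaks. Their fold enrichment over background, the ratio that the authors' peak caller gives each peak, had a median of 6.37 in replicate 1 and 7.61 in replicate 2. The middle 50% of regions lay between 5.03 and 8.397 in replicate 1 and between 5.85 and 10.7 in replicate 2. Regions with CTCF alone had medians of 12.9 and 15.1, and regions with H3K27ac alone had 5.92 and 7.25. By median height the unmarked regions therefore sat close to the H3K27ac regions and below the lower quartile of the CTCF regions, which was 8.10 and 9.31. The upper quartiles of the unmarked regions, 8.397 and 10.7, lay above it. These heights helped choose the regions and are given without a test.

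**Figure D1:**
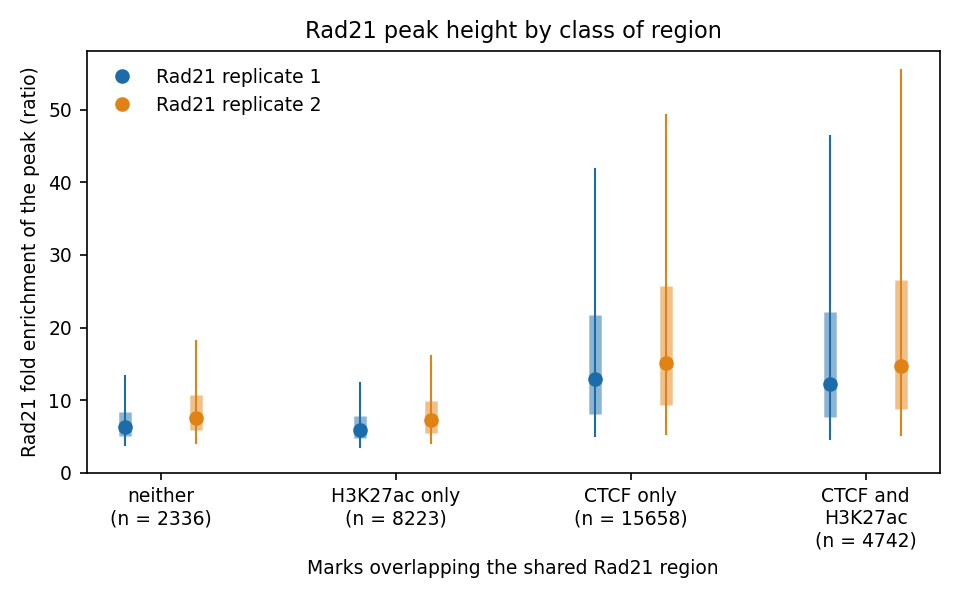
Rad21 fold enrichment (ratio, vertical axis) of shared Rad21 regions by the marks they overlap, in each Rad21 replicate; points are medians, thick bars the middle 50% of regions and thin lines the 5th to 95th percentiles. The unmarked regions have medians of 6.37 and 7.61, beside 12.9 and 15.1 for regions with CTCF only.

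They were also narrow. Their median width was 235 bp, against 282 bp with CTCF alone, 371 bp with H3K27ac alone and 306 bp over all shared regions. Across the 2336 regions, folds in replicate 1 and replicate 2 were related with a Spearman rho of 0.419, near the 0.421 of regions with H3K27ac alone and below the 0.790 of regions with CTCF alone. This is a correlation over regions of the same libraries, given as a description, and a narrower range of folds also enters it.

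A few unmarked regions were high. The region nearest to Ube2e3, which encodes a ubiquitin-conjugating enzyme, spanned chr2:78799574-78800066 and had folds of 30.7 and 46.2, which ranked 2588 and 1412 among the shared regions. It was intergenic, 41024 bp from the TSS, 27747 bp from the nearest CTCF peak and 2931 bp from the nearest H3K27ac peak. The region nearest to Lpin1, which encodes a phosphatidate phosphatase, spanned chr12:16237886-16238294, 358282 bp from that TSS, with folds of 29.5 and 44.7. Both carried the core consensus at both summits and lay far from the nearest CTCF peak of the library.

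The intergenic region nearest to Kctd18, chr1:58006087-58006421, was the highest without the consensus, with folds of 24.8 and 32.0, and its summits in the replicates were 2 bp apart. The region in an intron of Plcxd2, chr16:45991395-45991885, had folds of 20.3 and 29.0 and lay 970 bp from an H3K27ac peak. Of the 10 highest regions, these were the 2 without the consensus, and Plcxd2 was the 1 within a gene. The 8 with it lay outside genes, nearest to Ube2e3, Lpin1, Zc3h12b, Psmg1, Dscc1, Tapt1, Pitrm1 and Otogl, and no fold among them was below 20.8.

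At the other end, the 3 last regions lay near Slc4a8 (folds 3.48 and 3.20), near Crot (7.76 and 3.20) and in an intron of Tnfrsf1b (5.58 and 3.13), which encodes a tumour necrosis factor receptor. None had the consensus at a summit. The Crot region shows how far the replicates could differ for a low peak.

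Some regions were unmarked by a small margin. The unmarked region closest to a CTCF peak lay in an intron of Abcc4, a multidrug transporter gene, 46 bp from the peak, with folds of 6.45 and 13.5 and a consensus match of 1 mismatch. The next were 67 bp and 83 bp away, near Boll and Csf2ra. Just outside the rule, a region in an intron of Rbms3 overlapped a CTCF peak by 22 bp, one at the promoter of Itfg3 by 52 bp and one in an intron of Cd99l2 by 69 bp. For H3K27ac, unmarked regions in introns of Abi1, Runx3 and Gna15 lay 1, 2 and 4 bp from a peak, whereas regions at Ctnnbl1, Cyth1 and Acad9 overlapped one by 1, 4 and 4 bp and were left out. Within 1000 bp, a wider margin than these, 118 unmarked regions (5.05%) had a CTCF peak and 343 (14.7%) an H3K27ac peak. A CTCF peak lay that near to 11.6% of regions with H3K27ac alone. An H3K27ac peak lay that near to 7.17% of regions with CTCF alone. The 5th percentile of the distance from unmarked regions was 992.5 bp for CTCF and 130.5 bp for H3K27ac.

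The CTCF core consensus was present at most unmarked summits although no CTCF peak overlapped them. It lay within 50 bp of the replicate 1 summit in 1408 of 2336 regions, or 60.3% (exact 95% interval 58.3 to 62.3), beside 62.7% of all shared regions. At the replicate 2 summits the share was 60.5% (1414 regions), beside 62% of all shared regions, and the mean of the replicates was 60.4% ± 0.182 (SD, n = 2). Both values come from the same 2336 regions, whose summits lay a median of 19 bp apart. This SD therefore does not measure the spread between independent replicates. In windows of the same size 1000 bp downstream the shares were 4.49% and 4.32%. The unmarked regions thus had the consensus about as often as Rad21 regions in general, and far more often than the sequence beside them.

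The share differed between classes of Rad21 region. It was 90.7% and 89.9% with CTCF alone, 63.0% and 61.7% with both marks, and 10.0% and 9.50% with H3K27ac alone. The exact intervals of the unmarked regions overlapped neither those of the CTCF regions nor those of the H3K27ac regions in either replicate. The downstream windows of the H3K27ac regions had 4.71% and 4.74%. The share of unmarked regions fell to 39.7% when all replicate 2 peaks were used without the need for a replicate 1 peak. It fell to 46.7% when all replicate 1 peaks were used without the need for a replicate 2 peak.

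**Figure D2:**
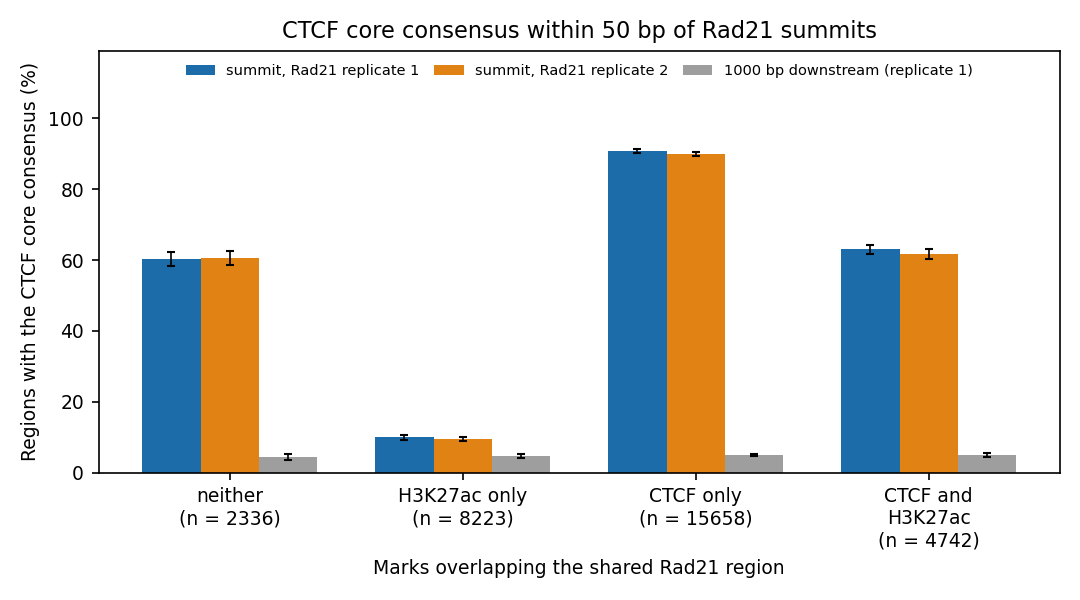
Percent of regions with the CTCF core consensus (at most 2 mismatches, vertical axis) within 50 bp of the Rad21 summit of each replicate and in windows 1000 bp downstream of replicate 1 summits, by class of region, with exact 95% intervals. The unmarked regions stand at 60.3% and 60.5%, between regions with CTCF only (90.7% and 89.9%) and regions with H3K27ac only (10.0% and 9.50%).

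The matches in unmarked regions were further from the consensus than those of regions with CTCF alone. A match without mismatch was found at 3.55% and 3.94% of all unmarked summits, against 23.1% and 22.9% with CTCF alone. With at most 1 mismatch the shares of all summits were 33.9% and 34.5%, against 69.04% and 68.4%. With both marks they were 37.5% and 37.0%, close to the unmarked regions. A match without mismatch was nevertheless more frequent with both marks, at 11.1% of summits in each replicate. Among regions matched at both summits, 57.5% of unmarked regions had at most 1 mismatch in each replicate. That share was 76.3% and 76.2% with CTCF alone. The match also lay less tightly on the summit: its centre was within 20 bp in 65.3% and 68.1% of matched unmarked regions and in 79.2% and 77.2% of matched CTCF regions. Either strand was used, with 50.8% and 51.3% of the unmarked matches on the plus strand. The 3 unmarked regions farthest from any CTCF peak among those not on chromosome 18, near Vwc2, Gfra2 and Gm10479 at 557140, 629389 and 646324 bp, each had a match at both summits, and that near Gfra2 had no mismatch.

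Matches of the unmarked regions also held fewer CG dinucleotides, the sites of DNA methylation in mammals. A CG lay within the match in 18.1% and 18.95% of them. The share was 35.3% and 35.2% with CTCF alone, 48.5% and 47.6% with both marks, and 39.8% and 37.5% with H3K27ac alone. In both replicates the exact interval for the unmarked regions, at most 21.1%, lay below those of the 3 other classes. The match word that recurred most among the unmarked regions, printed above, holds no CG. It made up 17.6% of unmarked matches in replicate 1, against 8.61% with CTCF alone, 4.29% with both marks and 1.94% with H3K27ac alone. Its part in the lower CG share was not tested. Methylation itself was not measured in the lists.

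Whether a region with the consensus was unmarked went along with its Rad21 height. The shared regions were divided by fold into 10 bins of equal size, the first the lowest. In the first bin of replicate 1, 21.3% of regions with the consensus were unmarked, in the fifth 11.5%, in the eighth 1.93% and in the highest 0.105% (3 of 2848). Replicate 2 gave 17.6%, 10.9%, 2.97% and 0.386% in the same bins. Regions without the consensus went from 10.04% and 10.8% unmarked in the first bin to 0% in the highest. Strong Rad21 peaks on the consensus were therefore nearly all called with CTCF, H3K27ac or both, and the unmarked ones lay at the weak end.

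The consensus was more frequent in higher bins, both in unmarked regions and in all shared regions. The consensus lay at 43.2% of the 403 unmarked regions of the lowest bin of replicate 1 and at 82.0% of the 61 in the eighth. In replicate 2 the share went from 40.6% of 397 to 83.8% of 37 in the ninth. Over all shared regions the same bins went from 26.3% to 83.8% in replicate 1 and from 29.6% to 88.6% in replicate 2. The bins above these held fewer than 20 unmarked regions and are not read.

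**Figure D3:**
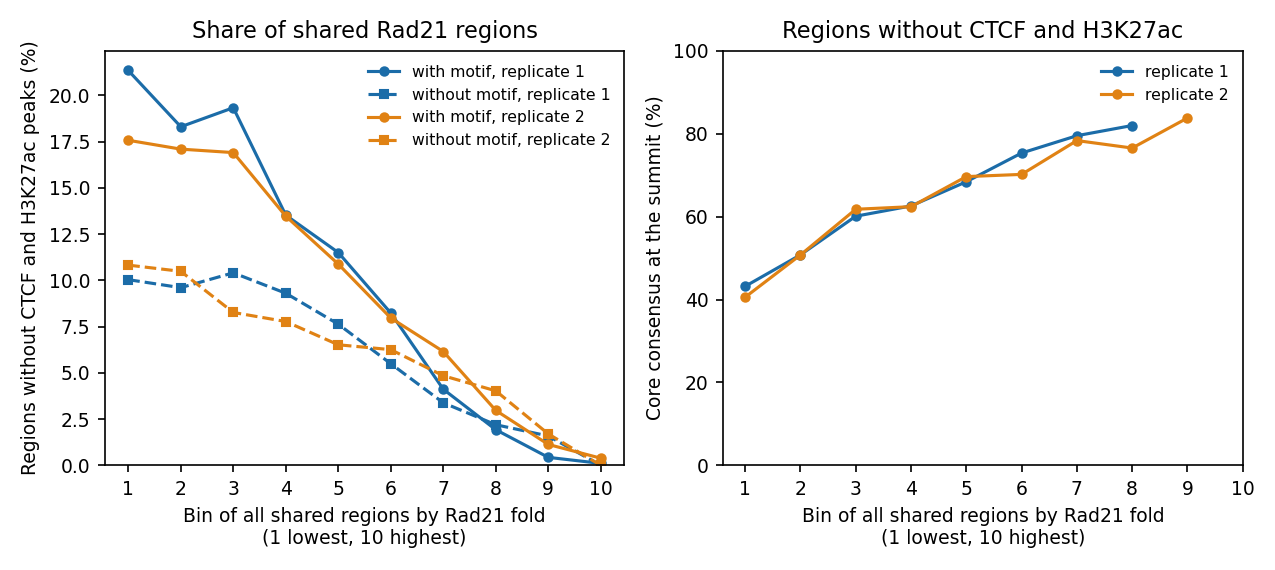
Left, percent of shared Rad21 regions with neither mark by bin of Rad21 fold (10 equal bins), for regions with (solid) and without (dashed) the core consensus at the summit of that replicate; right, percent of unmarked regions with the consensus in each bin that held at least 20 of them. The share of consensus regions that are unmarked falls from 21.3% to 0.105% in replicate 1 and from 17.6% to 0.386% in replicate 2.

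The match words were unevenly used. The word CCAGAAGAGGGCA, 1 mismatch from the consensus and printed above for Pitrm1, Fos, St8sia6 and Phlpp1, made up 248 of the 1408 unmarked matches in replicate 1 (17.6%) and 248 of 1414 in replicate 2 (17.5%). It made up 8.61% and 8.63% of matches with CTCF alone, 4.29% and 4.34% with both marks, and 1.94% and 2.05% with H3K27ac alone. The next most frequent words of the unmarked regions, CCAGAAGAGGGCG and CCAGAAGAGGGTG, made up 2.98% and 2.91% in replicate 1. The first of these was as frequent with CTCF alone (2.76%), and the second was rarer there (0.802%). Read from the other side, 15.4% of the shared regions matched by the leading word were unmarked, against 6.51% of those matched by any other word.

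The leading word is abundant in the mouse genome, with 38522 copies on both strands of chromosomes 1 to 19 and X. Of these copies, 1754 (4.55%) lay in a shared Rad21 region, 2379 (6.18%) in a CTCF peak and 273 in an unmarked region. Most copies thus had neither protein called over them in these libraries.

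Sequence copy number set the unmarked regions apart as well. A summit window was called repeated where it held a 20-base stretch found at least 100 times in the genome. This applied to 24.4% of unmarked regions at replicate 1 summits (570 regions) and to 24.2% at replicate 2 summits, beside 11.6% of all shared regions. The share was 14.1% with CTCF alone, 7.25% with both marks and 5.90% with H3K27ac alone, and in windows downstream of unmarked summits it was 19.3%. Unmarked summits were thus the only class in which repeated sequence was more frequent than beside the summit: downstream of the others it was 21.6% with CTCF alone, 16.4% with both marks and 17.1% with H3K27ac alone.

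The consensus was more frequent in repeated sequence, in unmarked regions as in all shared regions. The consensus lay at 80.7% of the 570 repeated summits and at 53.7% of the 1766 others, beside 80.5% and 60.4% over all shared regions. Among unmarked regions matched by the leading word, 89.9% were repeated, against 20.4% of those matched by another word. Over all shared regions these shares were 86.3% and 8.46%. Rad21 height did not follow this division: repeated regions had medians of 6.53 and 7.51 and the others 6.32 and 7.77. Reads in repeated sequence align less uniquely, and the part this has in the missing CTCF calls was not tested.

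Divided by the consensus, 1297 unmarked regions had it at both summits, 228 at 1 and 811 at none, and the first and last groups differed in more than the motif. Regions with it at both summits had median folds of 6.93 and 8.69, and regions with it at none had 5.84 and 6.69. Their summits in the replicates lay within 20 bp of each other in 66.4% and 41.1% of regions. That share was 76.7% with CTCF alone and 24.6% with H3K27ac alone. Divided in the same way, it was 79.5% in regions with CTCF alone that had the consensus at both summits and 24.3% in regions with H3K27ac alone that had it at none. A match at both summits is itself likelier where the summits are close, and in the 228 unmarked regions with a match at 1 summit the share was 14.0%.

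Unmarked regions lay less often at promoters than all shared Rad21 regions. The rule removed regions with H3K27ac, a mark of active promoters, so a lower share was partly set in advance. A promoter, taken as the 2000 bp before and after any TSS of a protein-coding gene, was overlapped by 347 unmarked regions, or 14.9% (13.4 to 16.4), beside 29.3% of all shared regions. With H3K27ac alone the share was 49.0%, with both marks 53.9% and with CTCF alone 13.6%. A further 36.9% of unmarked regions lay in introns, 3.64% in exons and 44.6% outside genes, beside 28.7%, 4.79% and 37.2% of all shared regions. The promoter share of regions with CTCF alone lay within the interval of the unmarked regions. The unmarked share itself was 22.4% where only H3K27ac peaks with q of at most 0.05 counted and 18.2% where an overlap had to cover 50% of the shorter peak.

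The 2 groups of unmarked regions differed here too. Regions without the consensus lay at a promoter in 22.9% (20.1 to 25.99), against 9.64% (8.09 to 11.4) of those with it at both summits. An H3K27ac peak lay within 1000 bp of 21.3% and 10.4%, and a CTCF peak within 1000 bp of 6.78% and 3.55%. The median GC content within 50 bp of the replicate 1 summit was 52.5% and 49.5%. Repeated summits showed the opposite order, 9.12% and 32.3%.

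**Figure D4:**
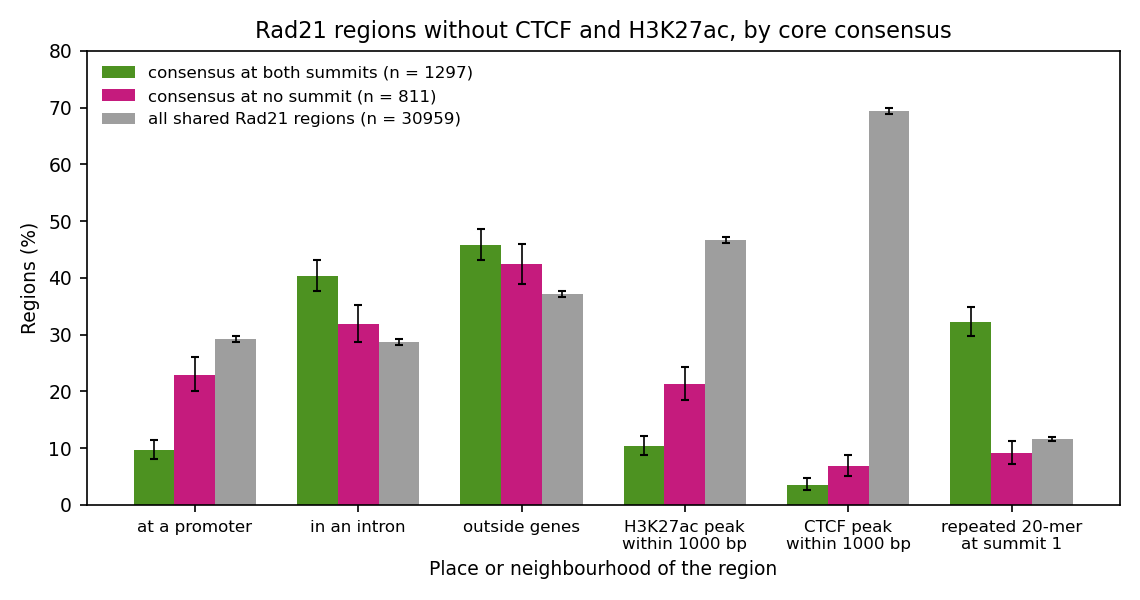
Percent of regions (vertical axis, exact 95% intervals) by place, neighbouring peaks and repeated sequence, for unmarked regions with the consensus at both summits or at none and for all shared Rad21 regions. Regions without the consensus lie more often at promoters (22.9% against 9.64%) and near H3K27ac (21.3% against 10.4%) and less often on a repeated 20-mer (9.12% against 32.3%).

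The highest unmarked promoter regions had the consensus in most cases. The region 1622 bp from the Cand2 TSS had folds of 21.7 and 22.8, a match at 1 summit, and a CTCF peak 136 bp away. The region at Gm9766 had folds of 18.9 and 52.0, the latter the highest of any unmarked region in replicate 2. Olfr15, an olfactory receptor gene, followed with 18.97 and 22.4, Cc2d2a with 15.5 and 23.2, and Sept2 with 17.6 and 16.98. Pnpla2, which encodes the adipose triglyceride lipase, and Mpp6 had a match without mismatch at both summits, with folds of 13.9 and 18.5 and of 11.8 and 15.04. Of the 10 highest promoter regions, which also include Phtf2, Adamtsl2 and Adamts16, the one at Adamtsl2 was alone in having no match.

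Distances from the unmarked regions to the marks and to each other are given as descriptions. No such distances were computed for other places in the genome, so the spacing is not read as a trait of these regions. The distance to the nearest CTCF peak had a median of 15724.5 bp and quartiles of 5347.5 and 36581.8 bp. The median distance to an H3K27ac peak was 8154 bp. Regions with H3K27ac alone had a median of 10228 bp to CTCF, and regions with CTCF alone one of 11817.5 bp to H3K27ac. No peak of either mark lay within 100000 bp of 28 unmarked regions (1.20%). Neighbouring unmarked regions were a median of 351308 bp apart, and 86 of 2316 neighbouring pairs (3.71%) were under 10000 bp apart. By chromosome, the unmarked share of shared Rad21 regions ran from 5.76% on chromosome 7 to 10.1% on chromosome X (65 of 643).

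The 811 regions without the CTCF consensus were searched for words of other DNA-binding proteins on both strands within 50 bp of the summit. Their median GC content was 52.5% and 51.5% at the summits and 46.5% in the downstream windows of both replicates. The part of base composition in the differences from those windows was not tested. TGTGGT, the core of RUNX sites, was at 18.4% (15.8 to 21.2) of replicate 1 summits and 17.02% of replicate 2 summits, against 8.01% and 6.54% in windows 1000 bp downstream. It was at 11.7% and 11.6% of all shared regions, and at 12.5% and 13.1% of H3K27ac-only regions without the CTCF consensus. RUNX factors are central regulators of thymocyte development. The exact interval at the unmarked summits was above the value for the H3K27ac regions in both replicates. CAGCACC, given below, was the only other searched word for which this held. TGTGGT can overlap the CTCF core: in unmarked regions with the consensus, all its hits shared bases with the match in 28 of 167 regions.

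Words of other activators were also more frequent than beside the summit. AGGAAG, the ETS core, was at 17.6% and 19.98% of these 811 regions, against 12.5% and 11.7% downstream and 14.1% and 14.3% of all shared regions. GGGCGG, bound by SP and KLF factors at GC-rich promoters, was at 9.001% and 8.26%, against 2.096% downstream in both replicates and 9.31% and 9.24% of all shared regions. CAGCTG, an E-box read by E proteins, was at 10.6% and 9.62%, against 5.80% and 6.17% downstream and 8.51% and 8.53% of all shared regions. For these 3 words the H3K27ac-only regions were higher, with 24.2% and 23.8% for the ETS word, 16.4% in both replicates for the SP/KLF word, and 13.3% and 13.97% for the E-box.

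CACCTG, a second E-box, was at 10.9% and 11.7%, against 7.27% and 6.91% downstream and 14.9% and 15.2% of all shared regions.

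**Figure D5:**
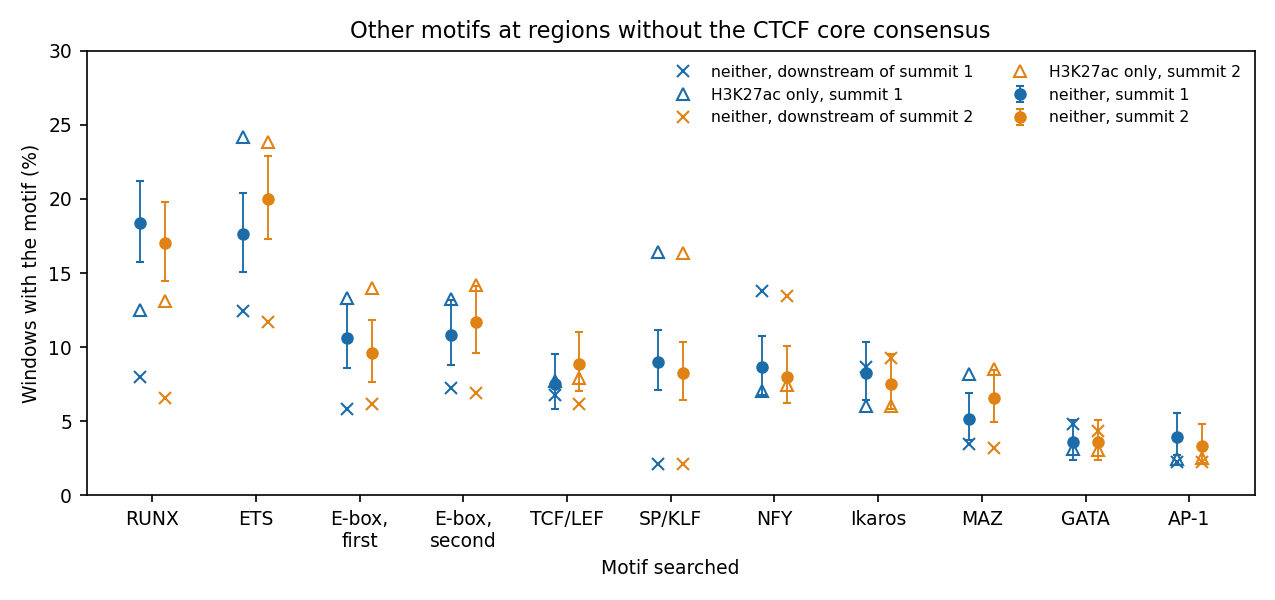
Percent of windows within 50 bp with the motif (vertical axis) of the summits of the 811 unmarked regions without the CTCF core consensus (circles, exact 95% intervals), 1000 bp downstream (crosses) and at H3K27ac-only regions without the consensus (triangles), in each Rad21 replicate; the first E-box is CAGCTG and the second CACCTG. The RUNX word stands at 18.4% and 17.02%, above the triangles at 12.5% and 13.1%, whereas the ETS, SP/KLF and E-box words lie below theirs. The NFY, Ikaros, GATA and AP-1 words also lie above their triangles, by less.

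Further words were counted in these 811 regions. CTTTGA of TCF/LEF factors was at 7.52% and 8.88%, against 6.78% and 6.17% downstream and 5.69% and 5.84% of all shared regions. GGGAGGG of MAZ was at 5.18% and 6.54%, against 3.45% and 3.21% downstream and 4.39% and 4.56% of all shared regions. TGANTCA of AP-1 was at 3.95% and 3.33%, against 2.22% downstream in both and 2.41% and 2.44% of all shared regions. AGATAA of GATA factors (3.58% in both, 4.81% and 4.32% downstream, 2.60% and 2.65% of all shared regions) and TGGGAA of Ikaros (8.26% and 7.52%, 8.63% and 9.25% downstream, 8.96% and 8.77% of all) were not above the downstream windows. CCAAT of NFY was below them, at 8.63% and 8.01% against 13.8% and 13.4%, with 9.23% and 9.51% of all shared regions. H3K27ac-only regions without the CTCF consensus were lower for AP-1 (2.46% and 2.50%), GATA (3.09% and 3.05%), Ikaros (6.02% and 6.01%) and NFY (7.03% and 7.41%). They were higher for MAZ (8.20% and 8.52%) and mixed for TCF/LEF (7.69% and 7.89%). No exact interval of these words lay above the H3K27ac-only value in both replicates.

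The words of YY1, ZNF143 and NRF1 were rare. AAGATGG was at 2.096% and 2.34% (all shared regions 2.48% and 2.43%), ACTACAA at 1.36% and 0.986% (0.956% and 1.02%), and the NRF1 motif at 0.247% and 0.617% (0.604% and 0.630%). In the downstream windows of the 811 regions they were at 2.22% and 2.84%, 0.493% and 0.863%, and 0% and 0.123%.

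CAGCACC, the left part of the RE1 element of the repressor REST, was at 5.55% and 5.67% of the 811 regions, against 1.60% downstream in both and 5.12% and 4.85% of all shared regions. It was at 3.87% and 3.47% of H3K27ac-only regions without the CTCF consensus, below the exact interval of the 811 regions in both replicates. Among unmarked regions with the CTCF consensus at both summits it was at 8.79% and 7.86%, and in 27 of those 114 regions of replicate 1 all its hits shared bases with the match. The longer CAGCACCNNNNNCAGCGC, searched after these words were seen, was found with at most 1 mismatch at 6 of the 811 regions in replicate 1 and 5 in replicate 2, at 0 of their downstream windows, and at 26 and 24 of all 30959 shared regions. REST elements spelled this way were therefore few. Their shares were 0.740% and 0.617% of the 811 regions, above the 0.0840% and 0.0775% of all shared regions, on small counts.

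Of all words of 6 letters, ACCACA, which is TGTGGT read on the other strand, had the largest excess over the downstream windows in both replicates (at least 10.4 percentage points in each). CCCGCC was at 9.86% and 10.4% against 2.22% and 2.59%, and CAGCGC at 9.86% and 9.12% against 1.23% and 1.97%. These words were picked for their excess among the same 811 regions, and the differences carry no test. The downstream windows were also poorer in GC, as given above.

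Some of the 811 regions held a CTCF-like sequence that the consensus missed. A weight matrix made from the matches of CTCF-only regions, set to find as many downstream windows as the consensus (4.87%), matched at 18.003% and 19.1% of their summits. Over all unmarked regions it matched 64.0% and 64.6%. The 639 regions with no matrix match at either summit still had TGTGGT at 19.1% and 17.5% and AGGAAG at 19.4% and 21.9%. In the 172 with a matrix match at a summit, TGTGGT was at 15.7% and 15.1% and AGGAAG at 11.05% and 12.8%. The ETS word was thus more frequent where neither search found a CTCF-like sequence. Its exact intervals in these groups were apart in replicate 2 and overlapped narrowly in replicate 1. The RUNX word was higher there by less, and its intervals overlapped in both replicates.

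Near genes, 1710 of 22208 protein-coding genes had an unmarked region within 10000 bp, which is 7.7% of genes. Among 22 regulators of the double-positive stage, 6 (27.3%) had one: Lef1, Gata3, Runx1, Runx3, Satb1 and Id2. Among 19 annotated genes that signal at the T cell receptor and its coreceptors, 4 (21.1%) had one: Fyn, Ptprc, Cd5 and Cd28. Both shares were above that of all genes, but the lists are short, gene length was not taken into account, and no test was made.

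The regions at the regulator genes were low to moderate and mixed in motif. At Lef1, which encodes an HMG box factor of the Wnt pathway, an intronic region (chr3:130873281-130873593) had folds of 6.14 and 8.69 and the CTCF consensus at both summits. Runx3 had one at its promoter (6.69 and 3.51) and one in an intron (7.01 and 5.85), the latter 2 bp from an H3K27ac peak. The Runx1 region, intronic, had 4.46 and 4.84 and no consensus at either summit. Id2, which encodes an inhibitor of E proteins, had a promoter region (chr12:25780796-25781419) with 8.93 and 9.04, no consensus, and no H3K27ac peak within 41020 bp. The region 284 bp outside Satb1, which encodes a chromatin organiser of thymocytes, had 9.07 and 6.27, a match of 1 mismatch at both summits and a CTCF peak no nearer than 96945 bp. The Gata3 promoter region had 5.86 and 5.27 and a match at 1 summit.

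The signalling genes held their regions within the gene. Fyn, a Src family kinase gene, had an intronic region (chr10:39163843-39164091) with folds of 11.2 and 14.6 and the consensus at both summits, 682 bp from an H3K27ac peak. Ptprc, which encodes the phosphatase CD45, had 2 intronic regions with 9.06 and 11.1 and with 3.87 and 5.81, 246 and 218 bp from H3K27ac peaks, and neither had the consensus. Cd5, a negative regulator of receptor signalling, had an intronic region with 8.22 and 11.4 and the consensus at both summits. Cd28, a costimulatory receptor gene, had one over an exon with 8.93 and 9.79 and the consensus at the replicate 2 summit only, without mismatch. The 3 regions at Ptprc and Fyn were thus within 1000 bp of H3K27ac, and the Cd5 and Cd28 regions, 2040 and 24993 bp away, were not.

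Genes of other cell types and gene families were counted in the same way. Of 13 genes of cohesin and CTCF, Wapal, which encodes the cohesin release factor WAPL, had a promoter region with folds of 7.25 and 6.54. The share was 1 of 15 neuronal genes (Gad1), 1 of 11 myeloid genes (Itgam), 0 of 10 liver genes and 0 of 8 B cell genes. Of 1113 olfactory receptor genes 7 (0.629%) had one, and of 327 vomeronasal receptor genes none. The count was 20 of 370 Zfp genes (5.41%), 4 of 39 Hox genes (10.3%), 1 of 24 clustered protocadherin genes and 1 of 41 cadherin and contactin genes. The receptor families were thus below the share of all genes, with genes of a cluster sharing their surroundings.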

How the data were processed

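Peak lists of 5 ChIP-seq libraries were used, 1 CTCF, 2 Rad21 and 2 H3K27ac, on build mm9 per the submitters' processing notes, whose tools include MACS2 2.1.0, Bowtie 1.0.0, Bowtie2 2.3.2 and CASAVA 1.82 and 1.84, with no step named for each. The control and threshold of the calls were not given in the sources used here. A deposited peak has a fold enrichment, a ratio computed by the authors' caller. The −log10 p and −log10 q values were used as deposited, to filter peaks in alternatives. The score deposited by the authors is 10 times −log10 q (−log10 p for CTCF) and was not used. The summit, in bp from the peak start, was taken as deposited. The lists carry no read counts, so depth and its precision are unknown.

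Peaks with the same coordinates were counted once, at the highest fold. The lists then held 35345 CTCF, 38430 and 48462 Rad21, and 38700 and 24765 H3K27ac peaks. A region took the highest peak of each replicate. Gene models were the protein-coding genes of GENCODE vM1 and the sequence was NCBIM37. Copies of 20-base stretches were counted over chromosomes 1 to 19 and X. Python 3.11.15, numpy 2.4.6, pandas 2.3.3, scipy 1.17.1 and numba 0.67.0 were used. Overlap classes, motif search and copy counts were tested on simulated data. Exact 95% (Clopper-Pearson) intervals cover counting error over regions, which are not replicates, and no comparison carries a p-value.

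Regions were ordered by the worse of their ranks by fold among shared regions, leaving out chromosome 18. Named were the first 10, the first 5 with and without the consensus, the last 3, the 3 nearest to and farthest from CTCF, the 3 just outside, the first 10 at promoters, and list genes with a region within 10000 bp. Regions at the H3K27ac margin and with the leading word were added after the values were seen. The members, lists, motifs and rules were chosen with earlier results of these data known. Alternatives were other thresholds, overlaps and windows and each replicate left out, and 3 more (the weight matrix, repeated sequence left out, stricter H3K27ac peaks) were chosen after seeing the data.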

Additional observations from a re-analysis of the deposited data

How the results depend on the processing

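These alternatives recomputed 10 values of the unmarked regions and not the contrasts with other classes. Of 124 recomputed values, 62 stayed within the replicate SD, the exact interval or a factor of 1.5, and 62 did not. Of the latter, 28 were motif shares, whose SD of 0.182, taken over the same regions in both replicates, is small. The factor of 1.5 was applied to the number of regions. That number rose from 2336 to 3456 with only CTCF peaks of q at most 0.05 and to 3124 with only H3K27ac peaks of q at most 0.05. The motif share in replicates 1 and 2 was 67.2% and 66.8% when only CTCF peaks with q of at most 0.05 counted, 68.96% and 69.2% with Rad21 −log10 q of at least 5, 56.0% and 56.0% with overlap of at least 50% of the shorter, 61.0% and 61.4% with no CTCF peak within 1000 bp, 51.7% and 52.1% where only shared H3K27ac regions counted, 60.1% and 60.2% on autosomes, 33.9% and 34.5% with at most 1 mismatch, 67.5% and 67.2% within 100 bp of the summit, 64.0% and 64.6% with the weight matrix, 54.1% and 54.5% without repeated summits, and 48.0% and 48.2% with H3K27ac peaks of q at most 0.05. The median distance to CTCF was 20216.5 bp with the stricter CTCF list, 17242 bp with the stricter Rad21 lists and 16888.5 bp without peaks within 1000 bp. The distance to H3K27ac was 6556.5 bp with the larger overlap, 17604 bp with shared H3K27ac regions, 9359.5 bp without repeated summits and 11682 bp with stricter H3K27ac peaks. The stricter Rad21 lists left 1456 regions with median folds of 7.42 and 9.30. The promoter share was 12.0% with them, 18.2% with the larger overlap, 7.41% with promoters of 500 bp, 16.4% without repeated summits and 22.4% with stricter H3K27ac peaks. The share within genes was 45.7%, 38.5% and 37.3% in the last 3, and median GC was 47.8% within 100 bp and 51.5% with stricter H3K27ac peaks. Leaving out each Rad21 or H3K27ac replicate gave 2445 to 8015 regions, median folds of 5.42 to 6.27 and 5.64 to 7.61, motif shares of 46.7% to 58.3% and 39.7% to 58.5%, 16.1% to 18.2% at promoters, 37.9% to 41.7% within genes, and median distances of 13799 to 16054 bp to CTCF and 7526 to 11022 bp to H3K27ac. The largest counts came without Rad21 replicate 1 (8015) and replicate 2 (4547), where a peak in 1 library was enough. No paired analysis was possible because the results are descriptions of places and come from no test. The share of summits in lower-case (repeat-masked) sequence was not run, since the genome sequence used holds no lower-case letters. Rad21 peaks near the calling threshold and a single CTCF library limit which regions are unmarked.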
